A study of Homo sapiens with 12 samples.

Results

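Antisense RNAs are transcripts that carry the name of a neighbouring gene and run on the opposite strand to it. In RNA-Seq of HEK293T lines with introduced EZH2, they were taken as every symbol of the count table that ends in -AS or in -AS and a number, without the symbols that start with HOX. That gave 349 of 14438 genes. Each was set beside its sense gene, the gene named before -AS. The sense gene was in the table for 327 of the antisense RNAs, as 321 distinct genes, and it was not in the table for 22 of them. By the current annotation (GENCODE 44), 334 of the 349 were long noncoding RNAs.

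Many antisense RNAs start at or near the promoter of their sense gene and leave it in the other direction, so that a shared stretch of open chromatin serves both transcripts. Others begin beyond the end of the sense gene and run back into it, or lie within one of its introns. EZH2 is the catalytic subunit of Polycomb repressive complex 2, which methylates lysine 27 of histone H3, a mark of silenced promoters that is often found at CpG-rich ones. The comparison asks how far the RNAs on both strands of such a locus moved when the active site of EZH2 was changed.

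HEK293T is an established human embryonic kidney line. RNA was sequenced from lines of the genotypes WT, EZH2 Y641F and EZH2 A677G, and from a line with the double mutant EZH2 H689A/F667I, with 3 replicates in each of the 4 lines. The study classes EZH2 Y641F and EZH2 A677G as gain-of-function (GOF) and EZH2 H689A/F667I as loss-of-function (LOF). All lines, EZH2 WT included, received their EZH2 by lentivirus on top of the cells' own EZH2 and were selected with blasticidin. Each genotype is 1 such line, which the study calls monoclonal, so a difference between lines and a difference between mutations cannot be told apart. Nothing in the labels says whether replicates were separate cultures, and p-values then measure only the spread between these samples.

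Total counts ran from 32137700 to 44562413 per sample. EZH2 stood at 154 to 163 CPM (counts scaled to a common library size) in EZH2 WT, 209 to 228 in EZH2 Y641F, 165 to 182 in EZH2 A677G and 206 to 210 in EZH2 H689A/F667I, and these counts hold both the introduced and the cells' own EZH2. Of 8 genes listed as usual for HEK293T, 7 could be tested and these 7 were detected in every sample. The other, PAX2, was left out because it had 0 counts throughout EZH2 A677G, EZH2 H689A/F667I or both lines. Of 9 markers of blood, fibroblasts, endothelium and hepatocytes, COL1A1 and LUM were in the table, at 0.92 to 9.72 CPM. EZH2 Y641F replicate 1 stood apart from the other replicates of its line on the second principal component, at 19.2 against -2.25 and 0.785.

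Positions on GRCh38 were known for 343 pairs. In 250 pairs the nearest starts of both genes lay within 2 kb of each other, in 62 the genes met tail to tail, in 17 the sense gene lay inside the antisense gene and in 9 the antisense RNA lay inside the sense gene. Exons of both strands overlapped in 218 of the 343 pairs. The libraries were stranded, but the strand setting of the counting is not given in the sources used here. Reads from overlapping exons therefore cannot be told apart with certainty. Of the 25 pairs whose antisense-to-sense ratio is tested below, the overlap is given for each with a called gene or a ratio difference. It is not given for the other pairs with a called sense gene. The windows between the starts were rich in CpG. Over the 250 pairs with close starts, the 300 bases centred between the starts held a median of 27.5 CpG, against 14 in the 35116 RefSeq promoter windows of the same length, which are placed differently (mostly upstream of a start). The windows below, read from hg38 in the direction of the antisense RNA with each CG in capitals, are those of 6 of the 8 antisense RNAs whose level differed from EZH2 WT. Those of ARRDC1-AS1 (51 CpG around its start) and MBNL1-AS1 (19 CpG between the starts) are not printed. The windows of SOX21-AS1, PRKCQ-AS1, HHIP-AS1 and EPB41L4A-AS2 lie between the starts of pairs in which both RNAs were lower in EZH2 A677G, DICER1-AS1 was higher beside a sense gene that did not pass the test, and PHEX-AS1 starts inside its sense gene.
SOX21-AS1 and SOX21, chr13:94712481-94712780, strand +: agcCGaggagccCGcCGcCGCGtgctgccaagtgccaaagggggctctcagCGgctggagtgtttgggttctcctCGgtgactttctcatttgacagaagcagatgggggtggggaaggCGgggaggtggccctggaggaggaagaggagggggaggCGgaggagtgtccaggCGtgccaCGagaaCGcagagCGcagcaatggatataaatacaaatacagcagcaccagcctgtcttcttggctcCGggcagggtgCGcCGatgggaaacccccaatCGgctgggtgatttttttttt
PRKCQ-AS1 and PRKCQ, chr10:6580211-6580510, strand +: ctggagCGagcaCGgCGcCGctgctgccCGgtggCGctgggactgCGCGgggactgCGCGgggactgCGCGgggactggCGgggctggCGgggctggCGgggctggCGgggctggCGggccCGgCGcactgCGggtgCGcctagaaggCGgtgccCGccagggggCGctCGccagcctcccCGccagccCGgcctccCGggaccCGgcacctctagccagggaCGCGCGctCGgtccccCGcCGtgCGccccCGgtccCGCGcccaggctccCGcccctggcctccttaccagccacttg
HHIP-AS1 and HHIP, chr4:144647000-144647299, strand -: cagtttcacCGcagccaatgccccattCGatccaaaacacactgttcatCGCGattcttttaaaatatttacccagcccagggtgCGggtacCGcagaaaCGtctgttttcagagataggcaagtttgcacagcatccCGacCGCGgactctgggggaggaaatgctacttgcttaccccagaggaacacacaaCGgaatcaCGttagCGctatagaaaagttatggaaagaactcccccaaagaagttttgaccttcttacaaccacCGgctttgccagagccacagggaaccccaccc
EPB41L4A-AS2 and EPB41L4A, chr5:112419299-112419598, strand +: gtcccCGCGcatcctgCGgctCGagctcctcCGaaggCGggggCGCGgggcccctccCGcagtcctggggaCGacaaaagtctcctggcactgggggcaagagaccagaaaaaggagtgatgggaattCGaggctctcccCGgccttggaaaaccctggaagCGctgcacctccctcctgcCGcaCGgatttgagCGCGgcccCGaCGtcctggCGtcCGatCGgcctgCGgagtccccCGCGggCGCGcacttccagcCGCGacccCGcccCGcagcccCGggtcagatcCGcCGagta
DICER1-AS1 and DICER1, chr14:95157438-95157737, strand +: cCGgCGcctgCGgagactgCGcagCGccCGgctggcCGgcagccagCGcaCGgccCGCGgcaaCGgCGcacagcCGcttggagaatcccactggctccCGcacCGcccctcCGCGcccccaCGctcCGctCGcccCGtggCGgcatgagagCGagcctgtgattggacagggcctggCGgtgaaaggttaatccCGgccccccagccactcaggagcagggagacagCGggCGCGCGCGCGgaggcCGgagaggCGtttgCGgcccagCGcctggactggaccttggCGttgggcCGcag
PHEX-AS1 alone, chrX:22172834-22173133, strand -: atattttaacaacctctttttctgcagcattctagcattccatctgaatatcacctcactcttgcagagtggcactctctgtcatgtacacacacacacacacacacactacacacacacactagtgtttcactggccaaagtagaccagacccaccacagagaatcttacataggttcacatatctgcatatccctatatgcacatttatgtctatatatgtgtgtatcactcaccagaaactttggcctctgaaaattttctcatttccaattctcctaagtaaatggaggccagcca
The PRKCQ window held 40 CpG, the DICER1 window 38 and the EPB41L4A window 34. Windows with at least as many made up 7.61%, 9.91% and 15.6% of RefSeq promoters. The SOX21 and HHIP windows held 17 and 14 CpG, counts reached by 46.0% and 50.3% of RefSeq promoters. The window around the start of PHEX-AS1 held 0 CpG and a run of alternating a and c. Among the 10 antisense RNAs with a changed level and close starts, the CpG count of the window ran from 8 to 41 with a median of 23, so that high and low counts were both found among them.

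Most antisense RNAs were scarce. Of the 349, 26 were at 0 in every replicate of EZH2 A677G (3), of EZH2 H689A/F667I (12) or of both lines (11), and were left out of the tests with no fold change given. These made up 7.45% of the antisense RNAs, against 1.21% of all genes in the table. Their counts were 3 to 33 in the EZH2 WT samples and 5 to 39 in the EZH2 Y641F samples. The zeros came as whole lines: EZH2 A677G had 134 genes of the table at 0 in its 3 replicates together and 3 genes at 0 in only 1 or 2 of them, and EZH2 H689A/F667I had 100 and 0 such genes. EDNRB-AS1 was among them, at 10 to 19 counts in the EZH2 WT and EZH2 Y641F samples and 0 in EZH2 A677G. Its sense gene EDNRB, the endothelin B receptor, fell by 1.02 (EZH2 Y641F) and 1.03 (EZH2 A677G) on the log2 scale. Of the 22 sense genes of these RNAs that were tested, 2 differed from EZH2 WT in EZH2 Y641F or EZH2 A677G. By the same test, 5.59% of all genes fell and 2.09% rose for EZH2 Y641F, against 6.48% and 2.07% for EZH2 A677G. A share of all genes called in either line was not computed, so the 2 of 22 are not shown to stand out.

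The 323 antisense RNAs tested had mean levels from 0.299 to 263 CPM with a median of 1.53 CPM. Of these, 115 were under 1 CPM and 28 were at 10 CPM or more. The sense genes had a median of 32.9 CPM and all tested genes one of 24.5 CPM. Per kilobase of each gene's longest annotated transcript, the sense gene exceeded its antisense RNA 11.2-fold at the median. The antisense RNA was the higher of the pair in 35 of 301. The low level set the precision. For EZH2 Y641F against EZH2 WT, the median standard error (SE) of the log2 fold change was 0.254 for antisense RNAs, 0.063 for sense genes and 0.0704 for all genes.

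**Figure D1:**
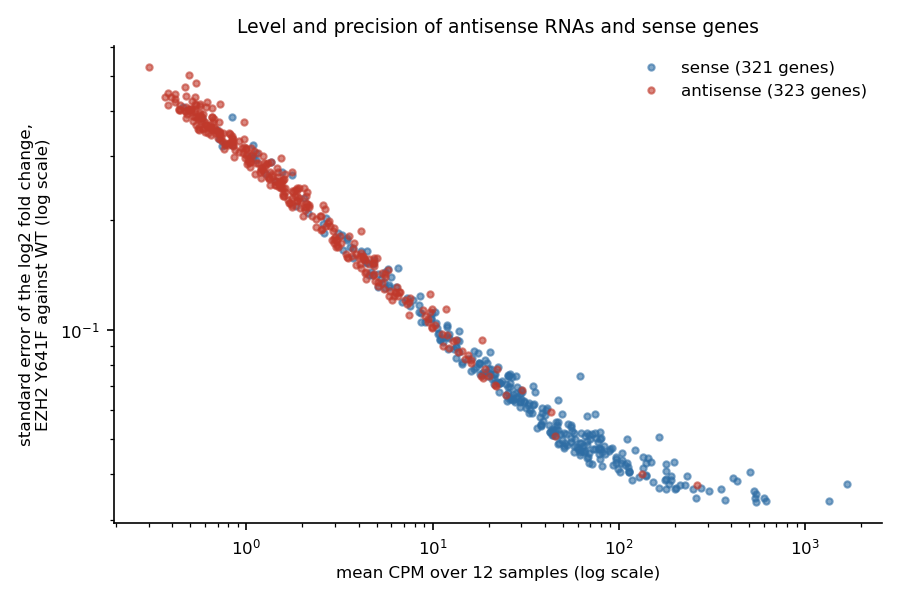
Standard error of the log2 fold change (EZH2 Y641F against EZH2 WT, log axis) against mean CPM over 12 samples (log axis). Each point is 1 of 323 antisense RNAs (red) or 321 sense genes (blue). Both kinds follow the same curve, and the antisense RNAs fill its low, imprecise end, with a median of 1.53 CPM against 32.9 CPM.

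The most abundant antisense RNAs did not pass the test in any comparison. LRRC75A-AS1, the host transcript of several small nucleolar RNAs, stood at 246 to 284 CPM across the samples. FGD5-AS1 stood at 128 to 140 CPM, TP73-AS1 at 43.1 to 46.9 CPM, OIP5-AS1 at 39.2 to 47.2 CPM, OTUD6B-AS1 at 26.9 to 33.7 CPM and MAGI2-AS3 at 21.9 to 27.5 CPM. Their fold changes against EZH2 WT were between -0.13 and 0.13 on the log2 scale in each mutant line, with SE of 0.0374 to 0.0686. The lines overlapped with EZH2 WT, apart from LRRC75A-AS1 in EZH2 H689A/F667I (264 to 284 against 246 to 263 CPM), OIP5-AS1 in EZH2 A677G (45.8 to 47.2 against 39.2 to 45.3 CPM) and MAGI2-AS3 in EZH2 A677G (21.9 to 23.1 against 23.6 to 25.7 CPM).

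In EZH2 Y641F, 4 antisense RNAs were lower than in EZH2 WT and 1 was higher. They were SOX21-AS1, PRKCQ-AS1, PHEX-AS1 and ARRDC1-AS1, and DICER1-AS1 on the higher side. These were 1.24% and 0.31% of the 323 tested, beside 5.59% and 2.09% of all genes (edgeR's quasi-likelihood test, Benjamini-Hochberg adjusted p under 0.05 over all 14263 genes). At an unadjusted p under 0.05 the shares were 9.29% of antisense RNAs and 19.2% of all genes, in either direction. Their median log2 fold change was 0.02, against 0.003 for all genes. Of the 321 sense genes, 13 were lower and 9 higher. The number of antisense calls, 5 here, was 9 by edgeR's exact test, which the study names, and 2 when the fit held only both groups compared. With DESeq2 the antisense calls were 4 lower and 2 higher, with the GC trend of each sample removed they were 3 and 2, and with upper-quartile scaling the sense calls were 14 and 6. With EZH2 WT replicate 1 left out 2 antisense RNAs passed, both lower, and without EZH2 Y641F replicate 1 there were 7. Without EZH2 WT replicate 1 or 2 the count of sense genes was 13 or 12.

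In EZH2 A677G, 5 antisense RNAs were lower than in EZH2 WT and 1 was higher, beside 6.48% and 2.07% of all genes. SOX21-AS1, PRKCQ-AS1, PHEX-AS1, HHIP-AS1 and EPB41L4A-AS2 were lower and MBNL1-AS1 was higher. At an unadjusted p under 0.05 there were 24 (7.43%), against 20.4% of all genes. The median log2 fold change was -0.04, against 0.005 for all genes. Of the sense genes 19 were lower and 8 higher. With DESeq2 or with the GC trend removed the antisense calls were 5 lower and 2 higher. The sense calls were 24 and 3 with upper-quartile scaling and 18 and 4 with library totals alone. Without EZH2 WT replicate 1 or 2, or EZH2 A677G replicate 1 or 2, the sense count was 16, 17, 15 or 13.

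In EZH2 H689A/F667I, 0 antisense RNAs passed in either direction by edgeR's quasi-likelihood test, its exact test or DESeq2, beside 0.161% of all genes lower and 0.14% higher. At an unadjusted p under 0.05 there were 20 (6.19%), against 8.3% of all genes. Of the sense genes, SRRM2 was lower, and SLC7A11 and UBE2E1 were higher, by 0.32 and 0.22 on the log2 scale. Without EZH2 WT replicate 1 or EZH2 H689A/F667I replicate 1, 1 of these sense genes passed, a higher one. SLC7A11 is the cystine transporter, and the antisense RNAs of SLC7A11 and UBE2E1 were both among those at 0 in this line. Of those, 12 were at 0 in this line only and 11 also in EZH2 A677G, SLC7A11-AS1 among the latter. In EZH2 A677G, SLC7A11 was also called higher, by 0.15 on the log2 scale. A link between the zeros and the sense genes was not tested.

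Between EZH2 Y641F and EZH2 A677G, 0 antisense RNAs and 0 sense genes passed by the same 3 tests, beside 0.014% of all genes lower and 0.0701% higher. At an unadjusted p under 0.05 there were 17 antisense RNAs (5.26%) and 24 sense genes (7.48%), against 6.91% of all genes. The mean of both GOF lines against EZH2 H689A/F667I gave 9 antisense RNAs lower and 0 higher, beside 8.75% and 3.81% of all genes. For the higher side this quasi-likelihood test gave 13 at an unadjusted p under 0.05 (4.02%, against 9.91% of all genes), and DESeq2 also gave 0 called. The sense genes split into 21 lower and 22 higher, or 28 and 16 with upper-quartile scaling. The 9 antisense RNAs were SOX21-AS1, PRKCQ-AS1, PHEX-AS1, STEAP3-AS1, C20orf166-AS1, MSC-AS1, SATB1-AS1, LOXL1-AS1 and PITPNA-AS1. Their number was 4 without EZH2 Y641F replicate 2 and 5 without EZH2 H689A/F667I replicate 1, and that of the sense genes was 23 without the latter. Of a further 8 gene-named noncoding RNAs, all with intronic -IT symbols, 0 passed in any of the 5 comparisons, and 1 had an unadjusted p under 0.05, in EZH2 H689A/F667I (edgeR's quasi-likelihood test; other tools were not counted for them).

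**Figure D2:**
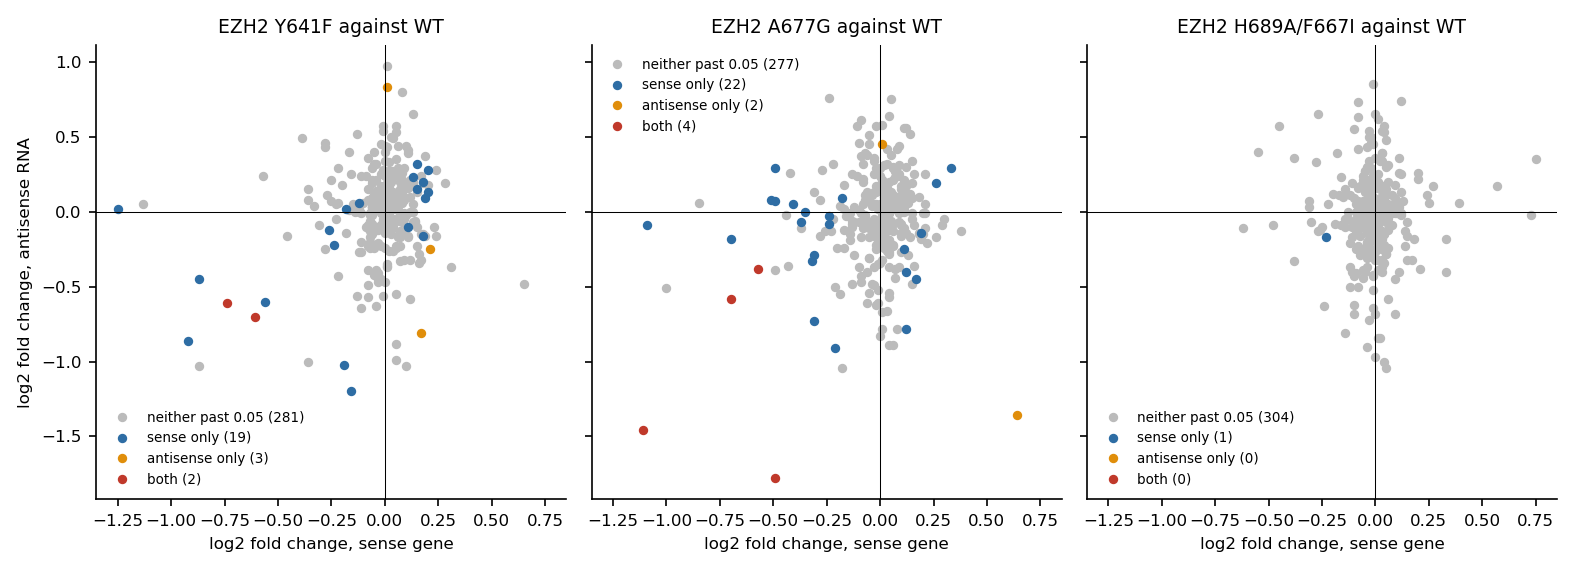
Log2 fold change of each antisense RNA (vertical axis) against that of its sense gene (horizontal axis) in the 305 pairs with both genes tested, for each mutant line against EZH2 WT. Each point is a pair, and colours mark which gene passed an adjusted p of 0.05. The antisense RNAs spread more widely than the sense genes, most points sit around 0 of both axes, and the pairs with both genes past the threshold (2 in EZH2 Y641F, 4 in EZH2 A677G) lie at the lower left. The panels share the EZH2 WT samples.

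SOX21-AS1 and SOX21 fell together. SOX21 is an HMG-box transcription factor of neural progenitors. The nearest annotated transcript starts of SOX21-AS1 (ENSG00000227640.5, GRCh38 chr13:94703454-94803430) and SOX21 are 171 bases apart, and their exons overlap by 0 bases. SOX21-AS1 had 15.2, 13.8 and 14.1 CPM in EZH2 WT, 9.77, 8.64 and 8.11 in EZH2 Y641F, 10.7, 9.24 and 8.78 in EZH2 A677G, beside 14.4, 14.7 and 16 in EZH2 H689A/F667I. All 6 samples of the GOF lines lay below all 6 others. SOX21-AS1 fell by 0.70 in EZH2 Y641F (SE 0.0968, edgeR adjusted p = 2.85e-06) and by 0.58 in EZH2 A677G (SE 0.0961, edgeR adjusted p = 4.79e-05) on the log2 scale, with all 3 replicates of either line below EZH2 WT. SOX21 had 15.9, 17.7 and 16.3 CPM in EZH2 WT, 12.9, 10.2 and 9.67 in EZH2 Y641F, 10.4, 10.7 and 9.57 in EZH2 A677G, beside 16.4, 15.8 and 16.1 in EZH2 H689A/F667I. Again the GOF samples did not overlap the others. SOX21 fell by 0.61 and 0.70 (edgeR adjusted p = 1.97e-05 and 1.84e-06). The pair kept these calls under every alternative run, each left-out replicate included.

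PRKCQ-AS1 and PRKCQ, the theta isoform of protein kinase C, which acts in T cell receptor signalling, also fell together. PRKCQ-AS1 (ENSG00000237943.8, chr10:6580419-6616921) starts 118 bases from PRKCQ, with 0 bases of exon overlap. PRKCQ-AS1 had 8.55, 9.50 and 7.60 CPM in EZH2 WT, 6.25, 5.07 and 5.49 in EZH2 Y641F, 5.86, 6.88 and 7.05 in EZH2 A677G, beside 7.82, 7.11 and 8.07 in EZH2 H689A/F667I. Both GOF lines lay below EZH2 WT in every sample. PRKCQ-AS1 fell by 0.61 in EZH2 Y641F (SE 0.121, edgeR adjusted p = 0.000663) and by 0.38 in EZH2 A677G (SE 0.120, edgeR adjusted p = 0.0386). The call in EZH2 A677G was lost when EZH2 WT replicate 1 or 2 or EZH2 A677G replicate 1 or 2 was left out, with an edgeR adjusted p of up to 0.238. Against EZH2 H689A/F667I the GOF mean of PRKCQ-AS1 differed by -0.33, a call lost without EZH2 Y641F replicate 2, EZH2 A677G replicate 1 or EZH2 H689A/F667I replicate 1 or 3 (edgeR adjusted p of up to 0.139). PRKCQ had 7.71, 6.65 and 7.06 CPM in EZH2 WT, 4.47, 3.62 and 4.68 in EZH2 Y641F, 5.21, 4.55 and 4.69 in EZH2 A677G, beside 7.04, 6.42 and 7.66 in EZH2 H689A/F667I. PRKCQ fell by 0.74 and 0.57 (edgeR adjusted p = 0.000143 and 0.00291), with no overlap between GOF samples and the rest.

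HHIP encodes a protein that binds Hedgehog ligands and dampens their signal. The nearest annotated transcript starts of HHIP-AS1 (ENSG00000248890.4, chr4:144642919-144661357) and HHIP are 100 bases apart, and their exons overlap by 813 bases. HHIP-AS1 had 1.27, 1.09 and 1.03 CPM in EZH2 WT, 0.642, 0.630 and 0.591 in EZH2 Y641F, 0.538, 0.295 and 0.384 in EZH2 A677G, beside 0.595, 0.789 and 1.33 in EZH2 H689A/F667I. The GOF samples lay below EZH2 WT, and the EZH2 H689A/F667I samples spread over both ranges. HHIP-AS1 fell in EZH2 A677G by 1.46 (SE 0.347, edgeR adjusted p = 0.0042), a call kept under every alternative, and had a log2 fold change of -0.86 in EZH2 Y641F (SE 0.326, edgeR adjusted p = 0.108). HHIP had 3.11, 3.44 and 4.68 CPM in EZH2 WT, 2.28, 2.00 and 1.66 in EZH2 Y641F, 1.53, 1.74 and 1.95 in EZH2 A677G, beside 2.87, 2.95 and 2.79 in EZH2 H689A/F667I. HHIP fell by 0.92 and 1.11 in the GOF lines (edgeR adjusted p = 0.00152 and 0.000156), with no overlap between GOF samples and the rest.

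EPB41L4A, a band 4.1 family protein of the cortical cytoskeleton, had 6.73 to 6.76 CPM in EZH2 WT and 4.58, 4.82 and 5.07 CPM in EZH2 A677G. Its antisense RNA EPB41L4A-AS2 (ENSG00000278921.2, chr5:112419583-112420978) starts 270 bases away with 0 bases of exon overlap. Another, EPB41L4A-AS1, lies inside EPB41L4A with 2200 bases of exon overlap and passed in no comparison. EPB41L4A-AS2 had 0.433, 0.414 and 0.543 CPM in EZH2 WT, 0.404, 0.210 and 0.0709 in EZH2 Y641F, 0.0449, 0.295 and 0.0548 in EZH2 A677G, beside 0.541, 0.204 and 0.372 in EZH2 H689A/F667I. The EZH2 A677G samples lay below EZH2 WT but were few counts apart from 0. In EZH2 A677G, EPB41L4A fell by 0.49 (edgeR adjusted p = 0.0156) and EPB41L4A-AS2 by 1.78 (SE 0.585, edgeR adjusted p = 0.0499). The latter call was kept in 4 of 9 other settings. Of the 6 fits that each drop a replicate it was kept in 1, without EZH2 A677G replicate 2, and the edgeR adjusted p reached 0.247. The call of EPB41L4A was lost without EZH2 WT replicate 1 or 2 or EZH2 A677G replicate 1 or 2, with an edgeR adjusted p of up to 0.0801.

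PHEX-AS1 fell in both GOF lines, and its sense gene did not pass the test. PHEX is an endopeptidase of phosphate balance in bone. PHEX-AS1 (ENSG00000224204.1, chrX:22162733-22172983) lies inside PHEX with 0 bases of exon overlap, 36396 bases from the nearest PHEX start. PHEX-AS1 had 2.33, 1.68 and 1.69 CPM in EZH2 WT, 0.998, 1.05 and 1.21 in EZH2 Y641F, 0.763, 0.590 and 0.878 in EZH2 A677G, beside 2.46, 2.34 and 2.45 in EZH2 H689A/F667I. All GOF samples lay below all others. PHEX-AS1 fell by 0.81 in EZH2 Y641F (SE 0.245, edgeR adjusted p = 0.0337) and by 1.36 in EZH2 A677G (SE 0.258, edgeR adjusted p = 0.000325). The former call was lost with only the compared groups, and without EZH2 WT replicate 1 or any EZH2 Y641F replicate. Its edgeR adjusted p reached 0.221 without EZH2 WT replicate 1 and was 0.0848 without EZH2 Y641F replicate 1. The latter call was kept throughout. PHEX had 0.541, 1.19 and 0.784 CPM in EZH2 WT, 1.05, 0.945 and 0.851 in EZH2 Y641F, 1.39, 1.2 and 1.34 in EZH2 A677G, beside 1.19, 1.27 and 1.83 in EZH2 H689A/F667I. For PHEX the EZH2 A677G samples lay above EZH2 WT and the other lines overlapped it. PHEX had log2 fold changes of 0.17 (SE 0.306) and 0.64 (SE 0.296) in the GOF lines, neither past the test.

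**Figure D3:**
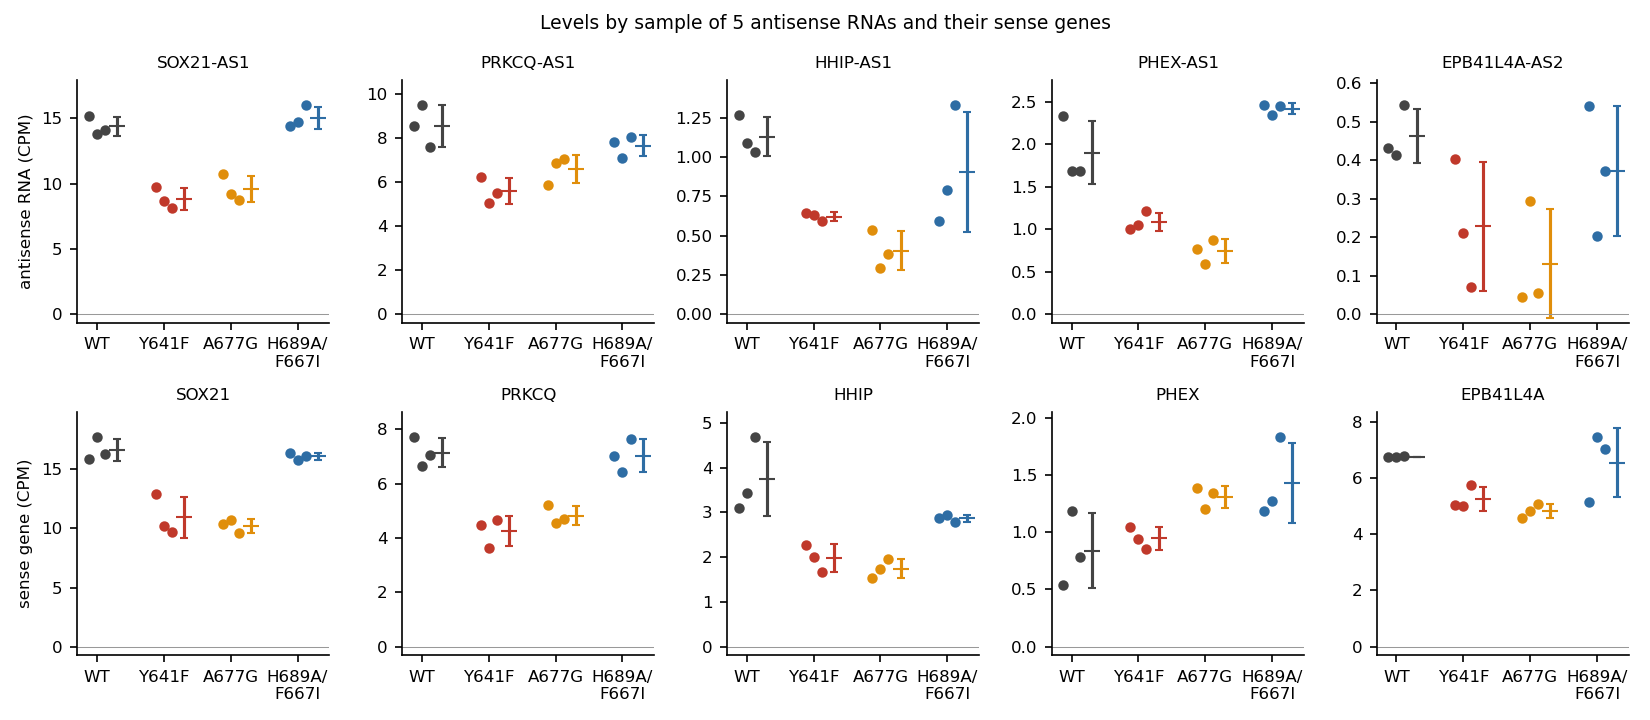
CPM by sample of 5 antisense RNAs (upper row) and their sense genes (lower row) in the 4 lines. Points are the 3 replicates of a line, and the bar beside them is the mean with 1 SD. SOX21-AS1, SOX21, PRKCQ-AS1, PRKCQ, HHIP and PHEX-AS1 have every EZH2 Y641F and EZH2 A677G sample below every other sample, whereas PHEX is not lower there.

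ARRDC1-AS1, DICER1-AS1 and MBNL1-AS1 differed from EZH2 WT in 1 line each, and their sense genes did not pass the test. ARRDC1 is an arrestin-domain adaptor of ubiquitin ligases, and its partner overlaps it tail to tail by 35 exon bases. ARRDC1-AS1 had 20.2, 22 and 21.1 CPM in EZH2 WT, 18.2, 16.1 and 18.7 in EZH2 Y641F, 19.1, 17.3 and 19.7 in EZH2 A677G, beside 19, 17.2 and 20 in EZH2 H689A/F667I. Every mutant sample lay below EZH2 WT. ARRDC1-AS1 fell by 0.25 in EZH2 Y641F (SE 0.078, edgeR adjusted p = 0.0378), and the call was lost with library totals alone, with only the compared groups, with the GC trend removed, and without any EZH2 WT replicate or EZH2 Y641F replicate 2 (edgeR adjusted p of up to 0.186). ARRDC1 had 16.7 to 18.2 CPM in EZH2 WT and 19.3 to 21.4 CPM in EZH2 Y641F, which did not overlap, with a log2 fold change of 0.21 (SE 0.0764, edgeR adjusted p = 0.0845) in the opposite direction to that of ARRDC1-AS1.

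DICER1-AS1 was higher in EZH2 Y641F next to DICER1, the ribonuclease that matures microRNAs. The nearest starts are 116 bases apart and the exons overlap by 80 bases. DICER1-AS1 had 1.33, 1.01 and 1.30 CPM in EZH2 WT, 2.64, 1.5 and 2.29 in EZH2 Y641F, 1.35, 1.28 and 1.59 in EZH2 A677G, beside 1.87, 1.5 and 1.77 in EZH2 H689A/F667I. The EZH2 Y641F samples lay above EZH2 WT and overlapped both other lines. It rose by 0.83 (SE 0.245, edgeR adjusted p = 0.028), but of the 6 fits that each drop a replicate the call was kept in 1, without EZH2 Y641F replicate 2 (edgeR adjusted p of up to 0.155), and it was lost with only the compared groups. Without EZH2 Y641F replicate 1 the log2 fold change was 0.65 (edgeR adjusted p = 0.142). DICER1 was at 240 to 259 CPM in all samples, with a log2 fold change of 0.01 (SE 0.0365).

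MBNL1-AS1 was higher in EZH2 A677G next to MBNL1, a splicing regulator. Their nearest starts are 97 bases apart and the exons overlap by 1175 bases. MBNL1-AS1 had 4.93, 4.04 and 3.92 CPM in EZH2 WT, 4.94, 5.23 and 5.04 in EZH2 Y641F, 5.99, 6.29 and 5.38 in EZH2 A677G, beside 5.22, 5.14 and 4.72 in EZH2 H689A/F667I. The EZH2 A677G samples were the highest. It rose by 0.45 (SE 0.134, edgeR adjusted p = 0.0249), a call lost without EZH2 WT replicate 2 or 3 or EZH2 A677G replicate 1 or 2 (edgeR adjusted p of up to 0.121). MBNL1 was at 141 to 158 CPM, with a log2 fold change of 0.01 (SE 0.0431).

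The remaining antisense RNAs passed only when both GOF lines were set against EZH2 H689A/F667I. STEAP3 is an endosomal iron reductase, and STEAP3-AS1 overlaps it tail to tail by 500 exon bases. STEAP3-AS1 had 0.704, 0.802 and 0.694 CPM in EZH2 WT, 0.238, 0.289 and 0.426 in EZH2 Y641F, 0.314, 0.246 and 0.631 in EZH2 A677G, beside 0.595, 1.02 and 0.807 in EZH2 H689A/F667I. The GOF samples lay below EZH2 WT, and 1 EZH2 A677G sample overlapped EZH2 H689A/F667I. The GOF mean was lower by a log2 difference of -1.19 (SE 0.325, edgeR adjusted p = 0.01). That call was lost without EZH2 H689A/F667I replicate 2, with an edgeR adjusted p of 0.118. STEAP3 went from 50.3 to 51.1 CPM in EZH2 WT to 44 to 47.2 in EZH2 Y641F and to 42.9 to 44.5 in EZH2 A677G, and fell by 0.16 and 0.21 against EZH2 WT (edgeR adjusted p = 0.035 and 0.00292). The call of STEAP3 in EZH2 Y641F was lost with library totals alone, with only the compared groups, with the GC trend removed and without any single replicate other than EZH2 Y641F replicate 1 (edgeR adjusted p of up to 0.125).

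C20orf166-AS1, whose sense gene was not in the table, had 0.483 to 0.854 CPM in EZH2 WT, 0.131 to 0.666 in EZH2 Y641F, 0.274 to 0.471 in EZH2 A677G and 0.611 to 0.893 in EZH2 H689A/F667I. EZH2 Y641F replicate 1 was the only GOF sample within the range of EZH2 WT. Without that replicate the log2 fold change in EZH2 Y641F went from -1.0 (edgeR adjusted p = 0.19) to -2.03 (edgeR adjusted p = 0.00634). Against EZH2 H689A/F667I the GOF mean differed by -1.2 (SE 0.361, edgeR adjusted p = 0.0218), a call lost without EZH2 Y641F replicate 2 or 3 or EZH2 H689A/F667I replicate 1 or 3 (edgeR adjusted p of up to 0.122). MSC-AS1 had 0.694 to 1.06 CPM in EZH2 WT and 0.962 to 1.33 in EZH2 H689A/F667I, against 0.331 to 0.897 in the GOF lines. Its sense gene MSC, the repressor musculin, had 1.04 to 1.63 CPM in EZH2 WT and 1.21 to 1.92 in EZH2 H689A/F667I, against 0.630 to 0.987 in the GOF lines, which did not overlap. The exons of MSC and MSC-AS1 overlap by 468 bases. Against EZH2 H689A/F667I, both genes were lower, by log2 differences of -0.97 (SE 0.281) for MSC-AS1 and -0.88 (SE 0.241) for MSC (edgeR adjusted p = 0.0159 and 0.011). Both calls were lost without EZH2 H689A/F667I replicate 1 (edgeR adjusted p = 0.124 and 0.165).

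SATB1-AS1, LOXL1-AS1 and PITPNA-AS1 had log2 differences of -0.87, -0.46 and -0.31 in the same comparison (edgeR adjusted p = 0.0419, 0.0319 and 0.0485). Of the 9 fits that each drop a replicate, that of SATB1-AS1 was kept in 3 (without EZH2 Y641F replicate 1 or 3 or EZH2 A677G replicate 2), that of LOXL1-AS1 in 3 (without EZH2 Y641F replicate 1, EZH2 A677G replicate 1 or EZH2 H689A/F667I replicate 3) and that of PITPNA-AS1 in 1 (without EZH2 Y641F replicate 1), with edgeR adjusted p of up to 0.134, 0.151 and 0.29. The call of SATB1-AS1 was also lost with DESeq2 and with only the compared groups, and that of PITPNA-AS1 with library totals alone. Without EZH2 Y641F replicate 1, LOXL1-AS1 was also lower in EZH2 Y641F than in EZH2 WT (log2 fold change -0.70, edgeR adjusted p = 0.00948). SATB1, an organiser of chromatin loops, was lower than in EZH2 WT in both GOF lines, by log2 fold changes of -0.24 and -0.31 (the former call was lost without EZH2 WT replicate 1 or 2 or EZH2 Y641F replicate 2, with an edgeR adjusted p of up to 0.135), while SATB1-AS1 had -0.22 and -0.73 with SE of 0.344 and 0.363. The exons of LOXL1 and LOXL1-AS1 overlap by 335 bases, those of PITPNA and PITPNA-AS1 by 384 and those of the SATB1 pair by 0. LOXL1, which crosslinks elastin, had a log2 difference of -0.33 (SE 0.221), and PITPNA, a phosphatidylinositol transfer protein, one of 0.00 (SE 0.0436), neither past the test.

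**Figure D4:**
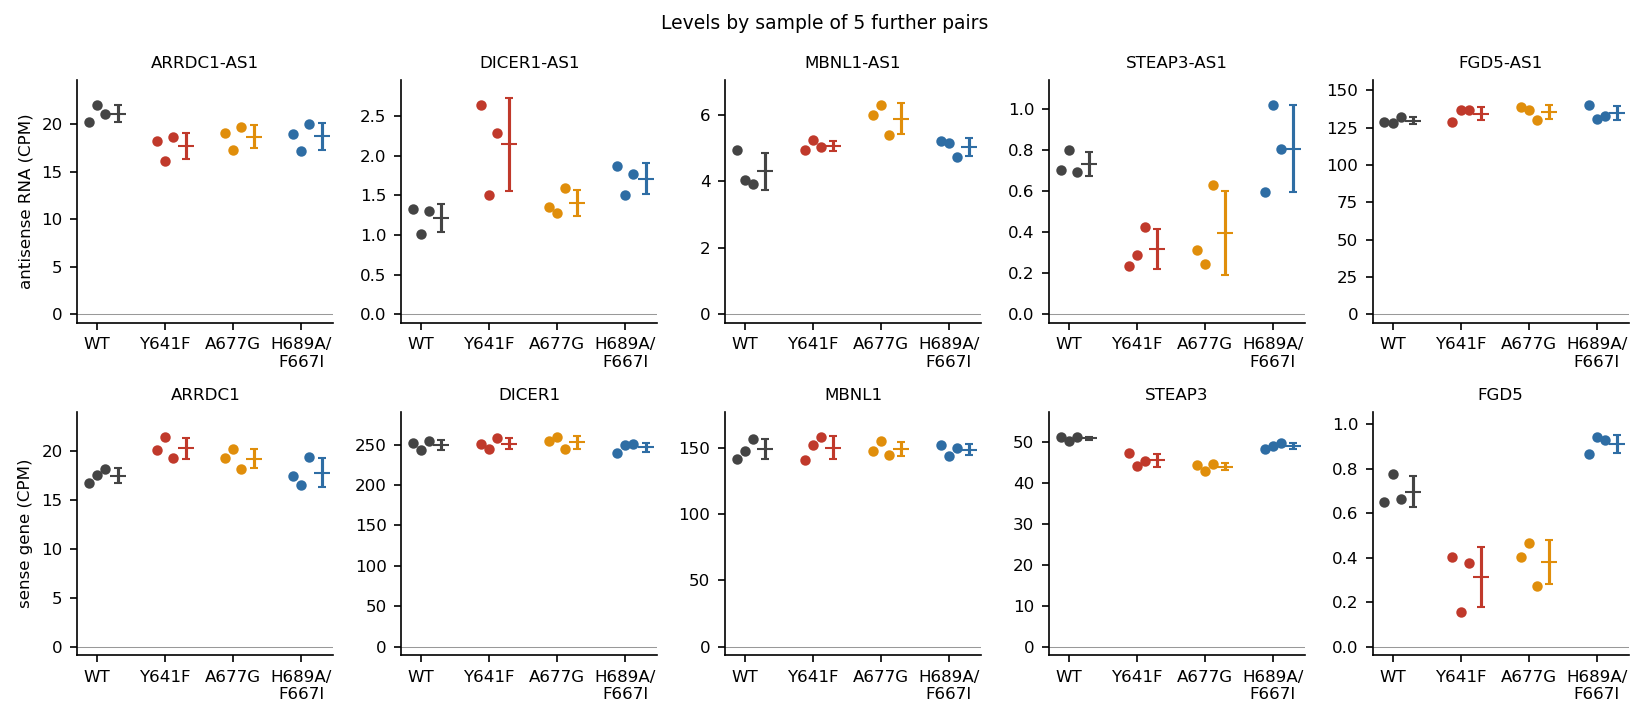
CPM by sample of 5 further antisense RNAs (upper row) and their sense genes (lower row). Points are the 3 replicates of a line, and the bar beside them is the mean with 1 SD. ARRDC1-AS1, DICER1-AS1 and MBNL1-AS1 differ from EZH2 WT in 1 line each beside a sense gene that did not pass the test, and the FGD5 samples of the GOF lines lie below the others (past the test only for the GOF mean against EZH2 H689A/F667I) while FGD5-AS1 stays between 128 and 140 CPM.

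In both GOF lines, 10 sense genes were lower than in EZH2 WT and 2 were higher, while 3 antisense RNAs were lower and 0 higher (edgeR's quasi-likelihood test). These were 3.12% and 0.623% of sense genes and 0.929% and 0% of antisense RNAs, beside 4.44% and 0.89% of all genes. The kinds were not measured with like precision, since the median SE in EZH2 Y641F was 0.254 for antisense RNAs and 0.063 for sense genes. Both comparisons use the same EZH2 WT samples. Besides those above, these sense genes were FZD10, LIFR, SERTAD4 and SH3RF3 on the lower side and MLLT4 and USP46 on the higher, and none of their 6 antisense RNAs passed. Exons overlap by 629 bases in the LIFR pair, by 177 in the SERTAD4 pair and by 0 in the others of these 6. FZD10, a Wnt receptor, had 6.06, 5.75 and 6.94 CPM in EZH2 WT, 4.16, 2.52 and 3.52 in EZH2 Y641F, 4.17, 3.64 and 3.65 in EZH2 A677G, beside 5.63, 5.53 and 6.14 in EZH2 H689A/F667I. All GOF samples lay below the others, and FZD10 fell by 0.87 and 0.70 (edgeR adjusted p = 0.000117 and 0.00131). FZD10-AS1, which starts 203 bases away, was at 0.473 to 1.33 CPM with overlapping lines and log2 fold changes of -0.45 (SE 0.319) and -0.18 (SE 0.313).

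LIFR, the receptor subunit for leukemia inhibitory factor, had 83.2 to 87.2 CPM in EZH2 WT, 74.0 to 77.8 in EZH2 Y641F, 71.6 to 73.2 in EZH2 A677G and 86.0 to 91.2 in EZH2 H689A/F667I. The GOF samples again lay below the others, by 0.18 and 0.24 against EZH2 WT on the log2 scale (edgeR adjusted p = 0.00469 and 9.6e-05). LIFR-AS1, at 0.649 to 1.48 CPM, had log2 fold changes of 0.02 and -0.03 with SE of 0.316 and 0.318, so that a change of the size seen in LIFR was not detectable at this depth. SERTAD4 had 15.5 to 16.3 CPM in EZH2 WT, 11.8 to 12.6 in EZH2 A677G and 10.2 to 11.2 in EZH2 Y641F, and fell in EZH2 Y641F and EZH2 A677G by 0.56 and 0.37 (edgeR adjusted p = 9.37e-06 and 0.00212), while SERTAD4-AS1 had log2 fold changes of -0.60 (SE 0.282) and -0.07 (SE 0.272). SH3RF3, a RING-type ubiquitin ligase and signalling scaffold, fell by 0.26 and 0.31 (edgeR adjusted p = 0.026 and 0.00655), the former lost without any EZH2 WT replicate or EZH2 Y641F replicate 1 (edgeR adjusted p = 0.0879 without the last). SH3RF3-AS1 had -0.12 (SE 0.124) and -0.29 (SE 0.125).

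MLLT4 encodes afadin, a junction adaptor, and rose by 0.13 and 0.12 in the GOF lines. USP46 is a deubiquitinase and rose by 0.18 and 0.17. The edgeR adjusted p values lay between 0.0161 and 0.0422. All 4 calls were lost without EZH2 WT replicate 2, and 3 of them also without EZH2 WT replicate 1. The exception was USP46 in EZH2 Y641F. The MLLT4 calls were also lost without EZH2 Y641F replicate 3 or, in EZH2 A677G, without any of its replicates. Those of USP46 were also lost without EZH2 Y641F replicate 2 or 3 and without EZH2 A677G replicate 1 or 2, each in its own line. The edgeR adjusted p reached 0.221, for MLLT4 without EZH2 Y641F replicate 3. Both MLLT4 calls were also lost with upper-quartile scaling. MLLT4-AS1 had log2 fold changes of 0.23 (SE 0.365) and -0.40 (SE 0.388) and USP46-AS1 of -0.16 (SE 0.305) and -0.45 (SE 0.312), with lines that overlapped.

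Over the 305 pairs with both genes tested, the sign of the antisense fold change was set beside the call of the sense gene. Most of these antisense RNAs did not pass the test themselves. Beside a lower sense gene, 2 of 12 passed in EZH2 Y641F and 4 of 19 in EZH2 A677G. For the GOF mean against EZH2 H689A/F667I it was 4 of 19. All of them were lower. Beside a sense gene that did not pass, 2 were called lower and 1 higher of 284 in EZH2 Y641F. Such calls were 1 and 1 of 279 in EZH2 A677G and 4 and 0 of 266 for the GOF mean. Beside a higher sense gene, 0 passed in any of these comparisons. In EZH2 Y641F, the antisense RNA had a log2 fold change below 0 in 9 of 12 pairs with a lower sense gene, and the median was -0.52. Beside the 284 sense genes that did not pass, 124 antisense RNAs were below 0 (43.7%) and the median was 0.02. In EZH2 A677G the counts were 13 of 19 with a median of -0.09, against 153 of 279 (54.8%) with a median of -0.02. For the GOF mean against EZH2 H689A/F667I they were 14 of 19 with a median of -0.31, against 124 of 266 (46.6%) with a median of 0.02. Beside a higher sense gene, the antisense RNA was above 0 in 7 of 9 pairs in EZH2 Y641F, 2 of 7 in EZH2 A677G and 12 of 20 for the GOF mean. In EZH2 A677G the share below 0 was thus 68.4% beside lower and 71.4% beside higher sense genes. These counts are a description with no test, since pairs share samples, and where exons overlap some reads may be shared.

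Antisense RNAs that passed in any of the 5 comparisons were 14 of 323 (4.33%), beside 16.4% of all genes. By arrangement of the pair they were 10 of 232 tested with starts within 2 kb, 3 of 57 tail to tail and 1 of 9 inside the sense gene, and 0 of 16 with the sense gene inside them (edgeR's quasi-likelihood test), and differences between arrangements were not tested. With starts within 2 kb, 12 of 14 antisense RNAs beside a lower sense gene were below 0 for the GOF mean against EZH2 H689A/F667I. In the other arrangements it was 2 of 5. Beside sense genes that did not pass, 43.9% and 54.3% were below 0 in the same comparison. Against EZH2 WT, the counts beside a lower sense gene were 11 of 16 and 2 of 3 in EZH2 A677G. In EZH2 Y641F they were 8 of 11 and 1 of 1.

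Whether both RNAs of a pair moved by unequal amounts was tested on the ratio itself. For the 25 pairs named here with both genes tested, the log2 CPM of the sense gene was subtracted from that of the antisense RNA in each sample, and the 6 GOF samples were set against the 6 of EZH2 WT and EZH2 H689A/F667I by a two-sided exact permutation test over 924 arrangements, which can give a p of 0.00216 at the least. The pairs were named for the level or the change of 1 of their genes, so the p-values are not independent of that choice, and they are not adjusted over the 25. Samples were exchanged freely between lines, so that replicates of a line count as independent samples. The p-values therefore do not measure the spread between lines. The ratio differed at p under 0.05 in 8 pairs, with the antisense RNA lower relative to its sense gene in 5.

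FGD5-AS1 had the widest shift towards the antisense RNA. FGD5 is an exchange factor for the GTPase CDC42. FGD5 had 0.649, 0.777 and 0.664 CPM in EZH2 WT, 0.404, 0.158 and 0.378 in EZH2 Y641F, 0.404, 0.467 and 0.274 in EZH2 A677G, beside 0.866, 0.942 and 0.931 in EZH2 H689A/F667I. All GOF samples lay below the others, and FGD5 passed for the GOF mean against EZH2 H689A/F667I (log2 difference -1.38, SE 0.306, edgeR adjusted p = 0.00142), while FGD5-AS1 passed in no comparison. Against EZH2 WT, FGD5 did not pass, with log2 fold changes of -1.13 (SE 0.382, edgeR adjusted p = 0.063) in EZH2 Y641F and -0.85 (SE 0.371, edgeR adjusted p = 0.171) in EZH2 A677G. The log2 ratio went from 7.28 ± 0.209 (SD, n = 6) to 8.46 ± 0.484 (SD, n = 6), a difference of 1.18 with no overlap (exact permutation p = 0.00216). The exons of this tail-to-tail pair overlap by 176 bases.

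PHEX-AS1 shifted the other way, from a log2 ratio to PHEX of 0.97 ± 0.573 (SD, n = 6) to -0.30 ± 0.577 (SD, n = 6), a difference of -1.27 (exact permutation p = 0.00433). By line, the log2 ratio was 1.18 in EZH2 WT, 0.76 in EZH2 H689A/F667I, -0.79 in EZH2 A677G and 0.19 in EZH2 Y641F. The GOF samples overlapped the others. STEAP3-AS1 to STEAP3 differed by -0.90 (exact permutation p = 0.00866), SATB1-AS1 to SATB1 by -0.48 (exact permutation p = 0.0325) and ARRDC1-AS1 to ARRDC1 by -0.29 (exact permutation p = 0.00649). OTUD6B-AS1 to OTUD6B, a deubiquitinase, differed by -0.14 (exact permutation p = 0.013). The exons of the OTUD6B pair overlap by 271 bases. In the other direction were PRKCQ-AS1 to PRKCQ at 0.23 (exact permutation p = 0.0346) and TP73-AS1 to TP73, of the p53 family, at 0.17 (exact permutation p = 0.00649), where exons overlap by 633 bases. These tests pool both GOF lines and both other lines, and a single line can weigh most. The mean log2 ratio of the SATB1 pair was -5.38 in EZH2 WT, -5.75 in EZH2 A677G, -5.42 in EZH2 Y641F and -4.83 in EZH2 H689A/F667I, so that EZH2 Y641F stood near EZH2 WT. The STEAP3 pair had -6.02 in EZH2 WT, -6.71 in EZH2 A677G, -6.98 in EZH2 Y641F and -5.87 in EZH2 H689A/F667I. Of the remaining pairs with a difference, the means of both GOF lines lay on the same side of both other lines.

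The SOX21 and HHIP pairs kept their ratio within its spread. The log2 ratio of SOX21-AS1 to SOX21 was -0.20 ± 0.144 (SD, n = 6) in the GOF samples and -0.16 ± 0.127 (SD, n = 6) in the others (exact permutation p = 0.58). That of HHIP-AS1 to HHIP was -1.79 ± 0.408 (SD, n = 6) and -1.68 ± 0.463 (SD, n = 6) (exact permutation p = 0.675). A p of this size does not show equal change, and the HHIP ratio varied widely between samples.

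**Figure D5:**
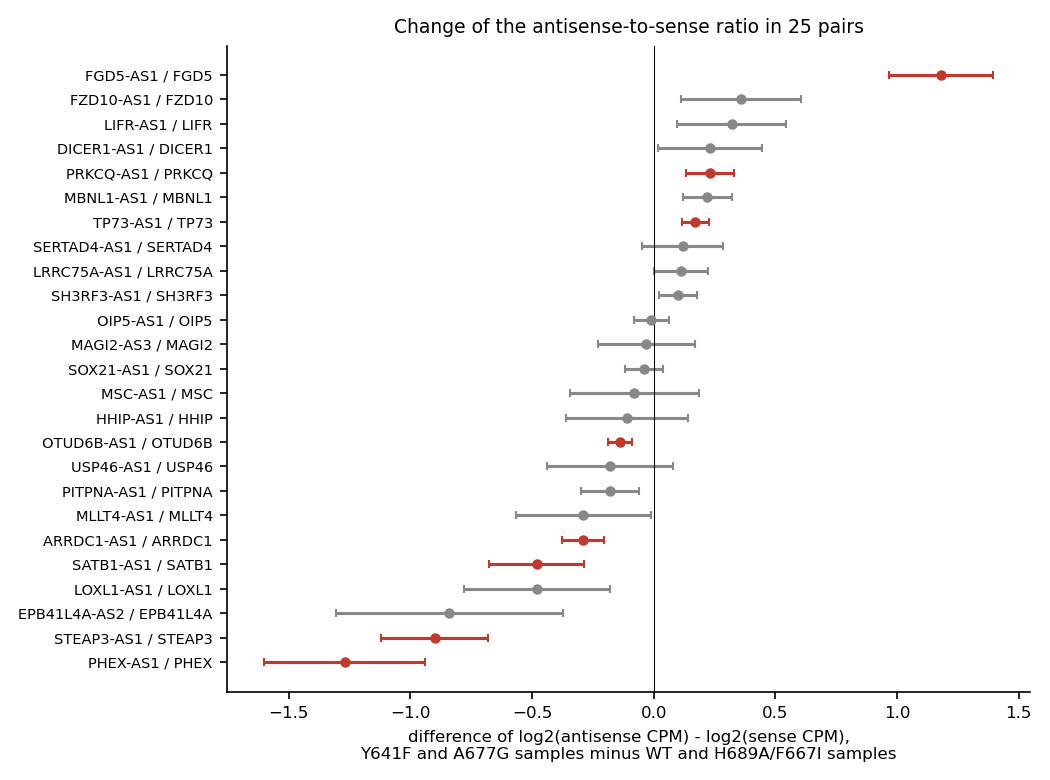
Difference of the log2 antisense-to-sense ratio between the 6 GOF samples and the 6 samples of EZH2 WT and EZH2 H689A/F667I (horizontal axis) for 25 pairs. Points are differences of means, bars their standard error, and red marks an exact permutation p under 0.05. FGD5-AS1 lies farthest to the right at 1.18 and PHEX-AS1 farthest to the left at -1.27, and SOX21-AS1 is near 0.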

How the data were processed

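RNA from the 12 samples was prepared with the TruSeq Stranded mRNA kit. According to the study's methods and the submitters' processing notes, reads were trimmed with Trim Galore 0.6.5, aligned to GRCh38 with STAR 2.7.9a and quantified with salmon 1.2.0. Per gene symbol, the authors deposited raw counts, which are whole numbers without normalization. The step from salmon to counts, its strand setting and the filter that left 14438 genes are not given in the sources used here. Low counts limit antisense RNAs most.

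Left out were 175 genes with 0 counts throughout EZH2 A677G, EZH2 H689A/F667I or both lines. The other 14263 passed filterByExpr. Tests were run with edgeR 4.0.16 in R 4.3.3 (TMM, quasi-likelihood test, 1 coefficient per line, all 12 samples). The exact test named by the study and DESeq2 1.42.0 served as alternatives. P-values were adjusted by Benjamini-Hochberg over all genes, with a threshold of 0.05. CPM are TMM-normalized, log2 CPM had a prior count of 2, and permutation tests used SciPy 1.17.1. The script was tested on simulated data.

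Symbols were matched to GENCODE 44 by name (272 antisense RNAs) or by an older symbol (73). Of the remaining, 4 were given no position of their own. Pairs were classed by the closest annotated transcript starts. Starts, exon overlaps and lengths are those of GENCODE 44, whereas the study names an older Gencode release as its salmon reference. They may therefore differ from the transcripts that were counted. Named were antisense RNAs past the threshold in any comparison, those whose sense gene passed in both GOF lines, the 6 with the highest mean CPM, and EZH2. EDNRB, SRRM2, SLC7A11 and UBE2E1 were named after their values were seen. Members and lists were chosen with earlier results of these data known. One marker on the list of genes of other cell types is not reported here.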

Additional observations from a re-analysis of the deposited data

Results flagged for a closer look

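Effects that differed between the mutant lines, by the test of that difference, are listed as log2 differences with edgeR's quasi-likelihood test and Benjamini-Hochberg adjustment, and no explanation was tested. The mean of the GOF lines against EZH2 H689A/F667I gave, for antisense RNAs, -1.43 for PHEX-AS1, -1.20 for C20orf166-AS1, -1.19 for STEAP3-AS1, -0.97 for MSC-AS1, -0.87 for SATB1-AS1, -0.71 for SOX21-AS1, -0.46 for LOXL1-AS1, -0.33 for PRKCQ-AS1 and -0.31 for PITPNA-AS1. Over all 321 sense genes, 21 were lower and 22 higher, and only those of the 25 pairs given the ratio test are listed. For these it gave -1.38 for FGD5, -0.88 for MSC, -0.67 for FZD10, -0.63 for HHIP, -0.63 for PRKCQ, -0.60 for SOX21, -0.38 for EPB41L4A, -0.31 for SERTAD4, -0.27 for LIFR, -0.21 for SH3RF3, -0.13 for STEAP3 and 0.13 for MLLT4. Leaving out 1 replicate in turn, the sense calls of SH3RF3 and STEAP3 were lost in 5 of 9 fits each (edgeR adjusted p of up to 0.226 and 0.14), for both without any EZH2 H689A/F667I replicate or EZH2 A677G replicate 2, for SH3RF3 also without EZH2 A677G replicate 1 and for STEAP3 also without EZH2 Y641F replicate 2. That of EPB41L4A was lost without EZH2 A677G replicate 1 or EZH2 H689A/F667I replicate 2 or 3 (up to 0.248), those of MSC and MLLT4 without EZH2 H689A/F667I replicate 1 (0.165 and 0.117) and that of HHIP without EZH2 H689A/F667I replicate 2 (0.0513). The call of STEAP3 was also lost with library totals alone. The EZH2 gene itself differed by 0.33 between EZH2 Y641F and EZH2 A677G, higher in the former.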

How the results depend on the processing

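Of 2487 recomputed values of single named genes, 2382 kept their side of the threshold and, where called, their direction, 85 no longer passed, 20 newly passed and 0 calls were reversed. Antisense RNAs called in EZH2 Y641F against EZH2 WT numbered 9 by edgeR's exact test and 2 with only the compared groups, against 5. With the genes at 0 kept, the antisense counts were 20 in EZH2 A677G, 23 in EZH2 H689A/F667I, 14 between the GOF lines and 24 for the GOF mean against EZH2 H689A/F667I, by construction mostly of RNAs at 0 in a whole line. Leaving out each replicate in turn gave 2 to 7, 4 to 5, 0 to 0, 0 to 0 and 4 to 11 antisense RNAs and 12 to 26, 13 to 23, 1 to 3, 0 to 0 and 23 to 58 sense genes in the 5 comparisons (EZH2 Y641F against EZH2 WT, then EZH2 A677G and the LOF line against EZH2 WT, EZH2 Y641F against EZH2 A677G, and the GOF mean against the LOF line). The ratio test gave 8 of 25 pairs also with a prior count of 0.5 or library totals alone. Same-numbered samples did not deviate together (correlations of -0.0557 to 0.0501, and 2 of 12 samples correlated best with their own number). With the replicate block the antisense counts were 5, 5, 0, 0 and 9 and the sense counts 23, 28, 3, 0 and 43. At a median of 1.53 CPM, small changes of antisense RNAs were not detectable. The exact test was not run for the GOF mean.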
